A study of Rattus norvegicus with 6 samples.

Results

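The Zfp-named zinc finger genes are the genes whose symbol begins with Zfp followed by a number, and 220 of the 14217 genes named on the rat expression array met this rule. The rule used the name alone, over probe sets (groups of short probes for one transcript) annotated with a single gene symbol, although the family itself was picked with earlier results of these data known. A gene with several probe sets was represented by the one with the highest mean over all 6 arrays. Arrays were available for 3 samples of embryonic stem (ES) cells and for 3 of a second pluripotent cell type, flat pluripotent stem (fPS) cells, both from Sprague-Dawley rats and with no genetic change named for either. The protocols in the labels were the same for both groups: a medium with LIF, the GSK3 inhibitor CHIR99021 and the MEK inhibitor PD0325901, and maintenance on mouse embryonic fibroblasts (MEFs, feeder cells treated with mitomycin C to stop their division) in medium with serum. The labels call the fPS samples flat PS cells in title and cell type but describe them, like the ES samples, as embryonic stem cells in a further field. Nothing in them tells separate cultures from repeats of one culture, so a p-value here covers the spread between samples alone, and that spread may be technical.

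Zinc finger proteins of the C2H2 class, the largest group under this name, carry repeated zinc-binding loops that read short stretches of DNA. Many also carry a KRAB box, which recruits Trim28 and through it Setdb1 and other makers of silent chromatin, and a large share of these proteins silence transposable elements in pluripotent cells. Such genes often lie in clusters of related copies. A few members bind RNA instead: Zfp36 and its relatives Zfp36l1 and Zfp36l2 have fingers of the CCCH class, bind AU-rich elements in messenger RNAs and bring in the enzymes that remove the poly(A) tail.

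The promoters of the members on which the results turn, taken as windows at annotated transcript starts, are shown first. They belong to Zfp36 and Zfp157, the members with the largest positive differences, to Zfp704 and Zfp267, for which a probe set passed the threshold, and to a run of 4 neighbouring members on chromosome 8. Each window of 300 bases, taken from RefSeq on the assembly GRCr8, covers 250 bases before and 50 after the annotated transcript start, and is written 5′ to 3′ in the direction of transcription. Capitals mark every match, on either strand, to one of 6 motifs: GCGNGGGCG (EGR factors), TGANTCA (AP-1), CCGGAAG and GGAAGTGA (ETS factors), CCAATCAG (an extended CCAAT box) and ACTACAA (part of the site of ZNF143, the human counterpart of Zfp143). CCGGAAG and GGAAGTGA can overlap by 5 bases. The motif GGAAGTGA was added after the sequences had been read.
Zfp36, chr1:92799059-92799358, minus strand: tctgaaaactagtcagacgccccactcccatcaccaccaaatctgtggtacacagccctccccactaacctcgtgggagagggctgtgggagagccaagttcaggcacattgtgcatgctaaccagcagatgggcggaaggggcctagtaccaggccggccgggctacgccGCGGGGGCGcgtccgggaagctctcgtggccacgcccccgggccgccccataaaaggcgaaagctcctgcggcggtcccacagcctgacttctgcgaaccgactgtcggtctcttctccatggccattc
Zfp157, chr12:21384421-21384720, minus strand: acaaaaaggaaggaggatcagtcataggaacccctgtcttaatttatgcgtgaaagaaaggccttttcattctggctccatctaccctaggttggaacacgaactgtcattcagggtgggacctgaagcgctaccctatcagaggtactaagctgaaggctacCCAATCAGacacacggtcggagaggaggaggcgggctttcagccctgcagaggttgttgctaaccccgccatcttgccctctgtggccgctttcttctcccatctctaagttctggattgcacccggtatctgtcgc
Zfp704, chr2:94128323-94128622, plus strand: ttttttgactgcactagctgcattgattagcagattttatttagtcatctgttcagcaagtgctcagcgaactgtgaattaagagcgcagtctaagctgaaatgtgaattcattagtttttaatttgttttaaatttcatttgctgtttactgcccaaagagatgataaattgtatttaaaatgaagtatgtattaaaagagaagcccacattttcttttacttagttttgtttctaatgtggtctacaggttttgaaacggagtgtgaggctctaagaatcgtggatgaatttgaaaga
Zfp267, chr2:120945184-120945483, plus strand: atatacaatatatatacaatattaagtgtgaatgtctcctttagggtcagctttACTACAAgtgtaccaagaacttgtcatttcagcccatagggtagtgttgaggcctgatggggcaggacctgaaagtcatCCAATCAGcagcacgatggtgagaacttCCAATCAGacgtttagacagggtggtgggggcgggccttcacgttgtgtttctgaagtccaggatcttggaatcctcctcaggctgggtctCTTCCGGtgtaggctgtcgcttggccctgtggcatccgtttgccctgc
Zfp26, chr8:27261600-27261899, minus strand: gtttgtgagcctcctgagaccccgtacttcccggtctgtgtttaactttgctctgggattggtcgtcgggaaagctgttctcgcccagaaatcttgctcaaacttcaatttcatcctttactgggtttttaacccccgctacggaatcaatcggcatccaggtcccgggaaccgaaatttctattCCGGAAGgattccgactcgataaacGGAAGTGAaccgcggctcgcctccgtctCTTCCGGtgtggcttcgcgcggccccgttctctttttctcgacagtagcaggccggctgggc
Zfp426, chr8:27305008-27305307, minus strand: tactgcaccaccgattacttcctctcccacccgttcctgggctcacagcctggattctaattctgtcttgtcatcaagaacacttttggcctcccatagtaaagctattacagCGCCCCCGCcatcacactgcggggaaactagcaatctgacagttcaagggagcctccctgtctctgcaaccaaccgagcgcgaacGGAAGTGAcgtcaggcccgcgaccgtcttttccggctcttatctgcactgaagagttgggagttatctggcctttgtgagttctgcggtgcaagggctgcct
Zfp266, chr8:27337490-27337789, minus strand: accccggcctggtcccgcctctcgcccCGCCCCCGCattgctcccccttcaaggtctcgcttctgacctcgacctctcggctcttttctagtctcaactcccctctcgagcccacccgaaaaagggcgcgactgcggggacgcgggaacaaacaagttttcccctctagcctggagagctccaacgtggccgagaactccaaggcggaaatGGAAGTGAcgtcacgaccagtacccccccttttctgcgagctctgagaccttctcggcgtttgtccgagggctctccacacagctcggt
Zfp846, chr8:27396061-27396360, plus strand: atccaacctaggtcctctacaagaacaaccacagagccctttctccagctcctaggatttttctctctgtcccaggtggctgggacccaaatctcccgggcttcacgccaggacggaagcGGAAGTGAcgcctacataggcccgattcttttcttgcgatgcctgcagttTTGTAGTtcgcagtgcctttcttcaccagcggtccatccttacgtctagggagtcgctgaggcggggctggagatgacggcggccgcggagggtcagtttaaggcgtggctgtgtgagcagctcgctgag

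Values were compared as log2(intensity + 16), which understates the differences of dim probe sets, with limma over all 31042 probe sets that were not controls and a threshold of 0.05 on the p-value adjusted by the Benjamini-Hochberg method. Every difference below is fPS minus ES on that scale. The median intensity of an array ran from 36.2 to 45.3. Probes for β-actin near the 3′ end read 2.06 to 4.37 times those near the 5′ end, a ratio that depends on intact RNA and was largest for fPS replicate 2, and for GAPDH it was 0.956 to 1.01. Among pluripotency markers, Sox2 was bright in both groups, at 3427, 3266 and 4618 on the ES and 2838, 1856 and 1281 on the fPS arrays. The marker lists of pluripotent cells, fibroblasts, endoderm, trophectoderm and neural cells had 13 of 18, 15 of 15, 7 of 7, 6 of 6 and 6 of 6 members measured. Of these, 1 gene passed the threshold, the trophectoderm marker Tfap2a, which was lower in fPS cells, and no measured marker read exactly 0. Summed intensity over the endoderm markers was 180 to 226 on the ES and 443 to 510 on the fPS arrays, and over the trophectoderm markers 1108 to 2272 and 474 to 1078, so the groups did not overlap for either list. The trophectoderm sum came mostly from Cdx2, Eomes and Tfap2a, and its groups came close, at 1108 and 1078. Cdx2 and Tfap2a were lower in fPS cells without overlap, and Eomes overlapped. Hand1, a dim marker of that list, was higher in fPS cells without overlap. Over the neural markers summed intensity was 594 to 769 and 235 to 544. That sum was made up mostly of Tubb3 (540, 581 and 703 on the ES and 435, 313 and 167 on the fPS arrays). The mean log2 value of that list overlapped, at 5.41 to 5.55 and 5.18 to 5.83. Pax6 was higher in fPS cells without overlap but dim, at 3.94 to 8.32 on the ES and 11.3 to 21.2 on the fPS arrays. At such signals a probe set may not measure a transcript. The sums overlapped for the pluripotent cell markers, 20802 to 29934 and 18412 to 24836, and for the fibroblast markers, 2361 to 3256 and 3025 to 3542. Among the pluripotent cell markers, Lin28a and Sox2 were lower and Klf5 higher in fPS cells without overlap. Timp1 made up most of the fibroblast sum except on replicate 3 of each group, at 2106, 1722 and 590 on the ES and 2080, 2358 and 1404 on the fPS arrays. Mmp2 and Postn of that list were higher in fPS cells without overlap, and none was lower without overlap. The part of these shifts in the values of the Zfp genes was not tested, and fewer cells of a type and less RNA per cell cannot be told apart in such samples.

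Of the 220 Zfp genes, 1 passed the threshold: Zfp704 fell in fPS cells and no member rose. Over all genes, 0.858% passed the threshold in either direction, 0.57% higher and 0.288% lower. Zfp704 read 416, 468 and 697 in ES cells and 142, 151 and 79.1 in fPS cells. All 3 fPS values lay below all 3 ES values. Its mean intensity was 527 ± 150 in ES and 124 ± 39.4 in fPS cells (SD, n = 3), and it fell by 1.96 ± 0.30 (SE) on the log2 scale, with an adjusted p of 0.0371. Its other probe sets also had negative differences, -1.14 with an adjusted p of 0.163 and, for a dim one reading 7.62 to 31.6, -0.20 with an adjusted p of 0.826. Zfp704 passed the threshold under 5 of 16 other settings of the analysis, with adjusted p-values from 0.00628 to 0.179. The call was lost when any single array was left out, while the difference stayed between -2.11 and -1.10 under all 16. The window at its annotated start, shown above, was the poorest in CpG of those printed, with 33% G and C and 4 CpG dinucleotides. It held no match to the 6 motifs. Whether transcription begins at that start was not tested, so the window may not be the promoter of Zfp704.

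Zfp267 had the next largest difference among members whose groups did not overlap. Its brighter probe set read 486, 286 and 589 on the ES and 161, 110 and 137 on the fPS arrays, with no overlap between the groups. The mean was 453 ± 154 in ES and 136 ± 25.4 in fPS cells (SD, n = 3), and the difference of -1.58 ± 0.29 (SE) had an adjusted p of 0.053, just short of the threshold. Its second probe set read 126, 95.3 and 155 on the ES and 29, 35.5 and 36.3 on the fPS arrays. That probe set fell by 1.49 ± 0.23 (SE), with an adjusted p of 0.0372. The 2 probe sets of Zfp267 therefore gave differences of one sign and like size, on opposite sides of the threshold. Its promoter held CCAATCAG at 2 places, with ACTACAA and CCGGAAG at 1 each.

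The plot of the members with the largest differences shows 8 in each direction whose ES and fPS values did not overlap. On the lower side, 6 others followed Zfp704 and Zfp267, with differences from -1.51 for Zfp933l1 to -1.10 for Zfp57 and adjusted p-values from 0.0947 to 0.207. Zfp933l1 read 322, 211 and 261 on the ES and 193, 93.6 and 24.6 on the fPS arrays. Zfp672 read 62.6, 56.5 and 96.9 against 45, 6.53 and 11.2, and it passed the threshold once fPS replicate 1 was left out, with an adjusted p of 0.0494. In these genes fPS replicate 1 lay nearest to the ES arrays, and the other fPS arrays were lower. The same held for Zfp764l1, at 82.3, 59.2 and 68 against 33.1, 21.4 and 4.26. Zfp105 read 112, 77.7 and 159 against 54.9, 38.6 and 34.1, with a difference of -1.14 and an adjusted p of 0.0961. Zfp763 read 81.4, 91.7 and 113 against 31.2, 23.4 and 55.8, and there fPS replicate 3 was the highest of its group. One member with a larger negative difference had overlapping groups: Zfp955a, at 817, 598 and 1236 against 604, 268 and 107, with a difference of -1.63 and an adjusted p of 0.192.

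**Figure D1:**
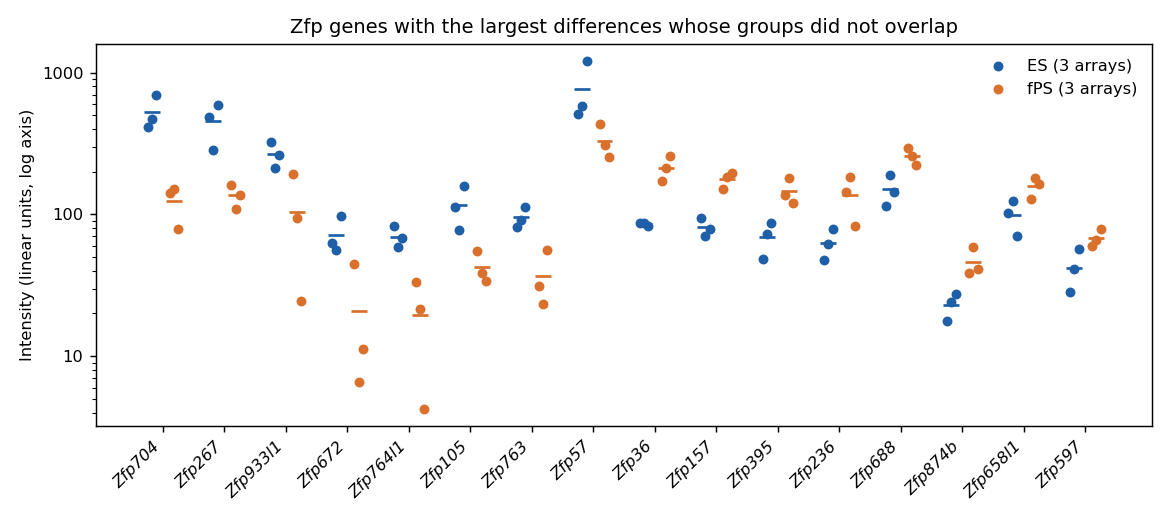
Intensity (log axis) on each of 3 ES (blue) and 3 fPS (orange) arrays for the 8 Zfp genes with the largest negative and the 8 with the largest positive difference among those whose groups did not overlap. Points are arrays and lines group means; Zfp704, at 416 to 697 in ES and 79.1 to 151 in fPS cells, is the one that passed the threshold.

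On the higher side Zfp36, the founding member of the CCCH family (tristetraprolin), had the largest difference. It read 86.8, 87.1 and 83.3 on the ES and 171, 213 and 258 on the fPS arrays. Every fPS array was above every ES array, and the ES arrays lay close together. The mean was 85.7 ± 2.1 in ES and 214 ± 43.4 in fPS cells (SD, n = 3), a difference of 1.16 ± 0.22 (SE) with an adjusted p of 0.0534. It passed the threshold under 3 of 16 other settings, with adjusted p-values from 0.0264 to 0.231. The Zfp36 promoter printed above held 1 match to GCGNGGGCG.

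Zfp36l1 was the brightest of all Zfp genes, brighter than 96.9% of the named genes. It read 2387, 2461 and 3088 on the ES and 2755, 1850 and 2089 on the fPS arrays, which overlapped, and its difference was -0.25 ± 0.23 (SE), with an adjusted p of 0.673. Zfp36l2 read 269, 312 and 452 against 533, 488 and 323, also with overlap, and its difference was 0.37 ± 0.28 (SE), with an adjusted p of 0.591. The dimmer probe sets of Zfp36l2 had differences of -0.06 and -0.11, and the mean over its probe sets gave 0.065. Of these 3 family members, only Zfp36 had groups that did not overlap. The differences between the 3 were not tested.

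The partners of the CCCH proteins were taken as a list of deadenylation, decapping and AU-rich element genes, of which 33 of 41 were measured. Of these, 1 gene, Btg1, passed the threshold, and its difference was positive. Over all genes 0.57% passed it higher and 0.288% lower. Btg1, which binds the deadenylase subunits Cnot7 and Cnot8 and slows cell division, read 1042, 1147 and 1812 on the ES and 3512, 3975 and 3482 on the fPS arrays. Its mean was 1333 ± 417 in ES and 3656 ± 276 in fPS cells (SD, n = 3), and it rose by 1.48 ± 0.25 (SE), with an adjusted p of 0.0449, a call lost when any single array was left out. The brightest of the other members, Elavl1, which stabilises AU-rich messenger RNAs, read 2134 ± 362 and 1856 ± 106 (difference -0.19, adjusted p 0.743), and Tial1, a relative of the translational repressor Tia1, read 1435 ± 235 and 1288 ± 137 (difference -0.15, adjusted p 0.814). Over the list the median difference was -0.19, or 0.02 without ES replicate 3 and fPS replicate 3, and 7 genes, 21.2%, were lower without overlap against 11.3% of all genes. Those 7 genes included the deadenylase subunits Cnot2, Cnot4 and Cnot10, the decapping factor Dcp1b and the exonuclease Xrn1, none past the threshold.

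Zfp157 was the second largest on the higher side. It read 94.6, 70.1 and 78.7 on the ES and 151, 185 and 197 on the fPS arrays, with no overlap. The mean was 81.1 ± 12.5 in ES and 178 ± 23.9 in fPS cells (SD, n = 3), and the difference of 0.998 ± 0.21 (SE) had an adjusted p of 0.0728. Its second, dimmer probe set, at 34.3, 28.9 and 39.2 against 33.5, 48.3 and 41.5, overlapped and had a difference of 0.19 with an adjusted p of 0.746. Its promoter window held CCAATCAG at 1 place.

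The remaining 6 members named on the higher side were Zfp395, Zfp236, Zfp688, Zfp874b, Zfp658l1 and Zfp597, with differences from 0.93 down to 0.56 and adjusted p-values from 0.131 to 0.321. Zfp395 read 48.5, 73.2 and 86.7 on the ES and 137, 180 and 120 on the fPS arrays. Zfp236 read 47.5, 62.3 and 78.4 against 144, 184 and 82.3, so that its lowest fPS array, replicate 3, lay just above the ES range. A nearly as bright probe set of Zfp236 read 95.4, 54.2 and 75.7 against 92.9, 89.8 and 76.5. It overlapped, with a difference of 0.19 and an adjusted p of 0.771. Zfp688, a KRAB member, read 115, 190 and 145 against 294, 260 and 224. The other 3 were dimmer or closer to the ES range, such as Zfp597 at 28.3, 41.1 and 57.2 against 59.6, 65.9 and 78.7.

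Beyond these single genes, the Zfp genes as a group read lower in fPS cells relative to other genes, by a small amount. Their median difference was -0.17 (quartiles -0.45 and 0.10, range -1.96 to 1.16), against 0.003 for the 13997 other genes (quartiles -0.27 and 0.28). The difference was negative in 146 of 220 Zfp genes, 66.4%, and in 49.8% of other genes. All 3 fPS arrays lay below all 3 ES arrays in 42 Zfp genes, 19.1%, and above them in 13, 5.91%. Over all genes these shares were 11.3% and 11.3%, and 22.6% in either direction, against 55 Zfp genes or 25% in either direction. At an unadjusted p under 0.05, 40 Zfp genes were lower and 9 higher, against 8.88% lower and 8.59% higher over all genes. A difference beyond 1 in size was seen in 10 of 220 Zfp genes, 9 negative and 1 positive. Over all 14217 genes it was seen in 699, 331 negative and 368 positive.

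**Figure D2:**
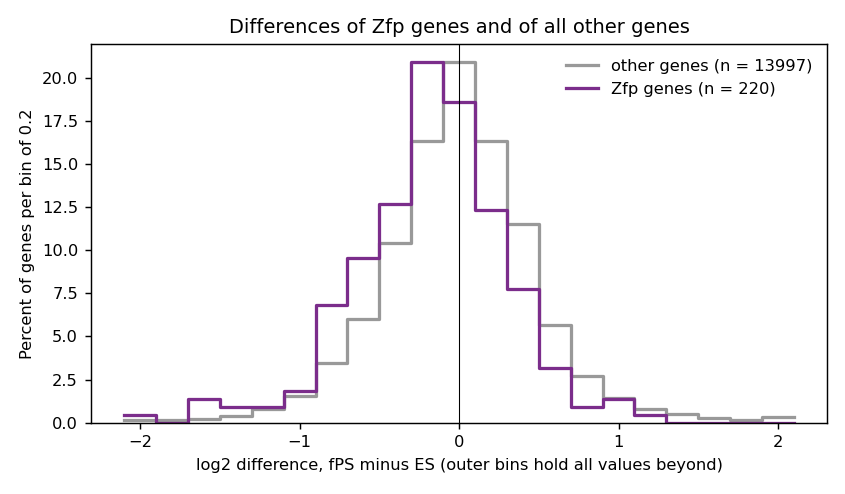
Distribution of the log2 difference, fPS minus ES, for the 220 Zfp genes (purple) and the 13997 other genes (grey), as the percent of genes in bins of 0.2 (outermost bins hold all values beyond). The Zfp outline lies to the left of the grey one, with medians of -0.17 and 0.003.

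The shift of the group rested largely on a single array of each group. The median deviation of the Zfp genes from each gene's own mean over the 6 arrays was 0.01, 0.02 and 0.26 on ES replicates 1 to 3 and 0.10, -0.04 and -0.29 on fPS replicates 1 to 3. For other genes the same values were -0.007, -0.04 and 0.05 in ES and 0.10, -0.001 and -0.11 in fPS cells. ES replicate 3 and fPS replicate 3 thus lay at the 2 ends, and the other 4 arrays were close to the other genes. Of the Zfp genes, 43.6% had their lowest value on fPS replicate 3 and 40.9% their highest on ES replicate 3, against 29.3% and 27.9% of other genes. Without fPS replicate 3 the median difference of the Zfp genes was -0.025, against 0.05 for other genes, and without ES replicate 3 it was -0.10 against 0.013. Without both it was 0.03 against 0.07. Then 57 Zfp genes, 25.9%, were higher and 55, 25%, lower without overlap, against 31.3% and 19.2% of other genes. When instead fPS replicate 1 was left out, 75 Zfp genes, 34.1%, were lower without overlap, against 21.4% of other genes. The median was negative under both other scalings, -0.15 after quantile normalization and -0.24 after centring each array on its median, against 0.017 and -0.06 for other genes. On fPS replicate 3 the pluripotent cell markers were also at their lowest mean, 9.65 on the log2 scale against 9.97 to 10.63 on the other arrays, and on ES replicate 3 they were at their highest. The fibroblast markers averaged 6.92 on ES replicate 3 and 6.99 on fPS replicate 3, the highest value in each group, against 5.62 to 6.48 elsewhere. The part of these markers in the Zfp values was not tested.

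**Figure D3:**
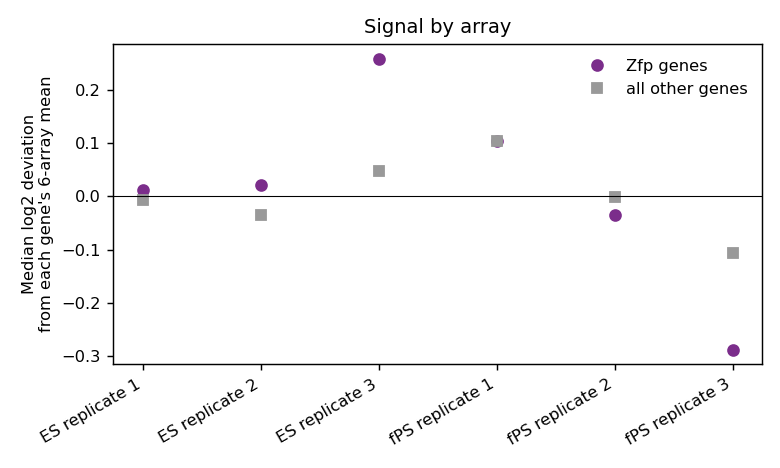
Median over genes of the log2 deviation of an array from each gene's mean over all 6 arrays, for the Zfp genes (purple circles) and all other genes (grey squares). The Zfp genes stand apart from the other genes on ES replicate 3, at 0.26 against 0.05, and on fPS replicate 3, at -0.29 against -0.11.

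Zfp genes were of ordinary brightness as a whole, with few at the top. Their median position was the 48.7th percentile of all named genes, and the median log2 signal of an array over Zfp genes lay between 6.34 and 6.82, against 6.54 to 6.80 over other genes. The dimmest 25% of all genes held 36 of them, 16.4%, the brightest 25% held 29, 13.2%, and the top 10% held 6, 2.73%. Most members were therefore of middle signal. Probe sets differ in how well they bind, so an order of signals is not an order of transcript amounts. In the brightest 25% of genes, 25 of 29 Zfp genes had a negative difference, with a median of -0.25 against -0.12 for other genes of that class, but 18 did after quantile normalization, with medians of -0.12 and 0.008, and 12 did without ES replicate 3 and fPS replicate 3, with medians of 0.06 and 0.04. In the dimmest 25% the medians were -0.03 and 0.07.

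**Figure D4:**
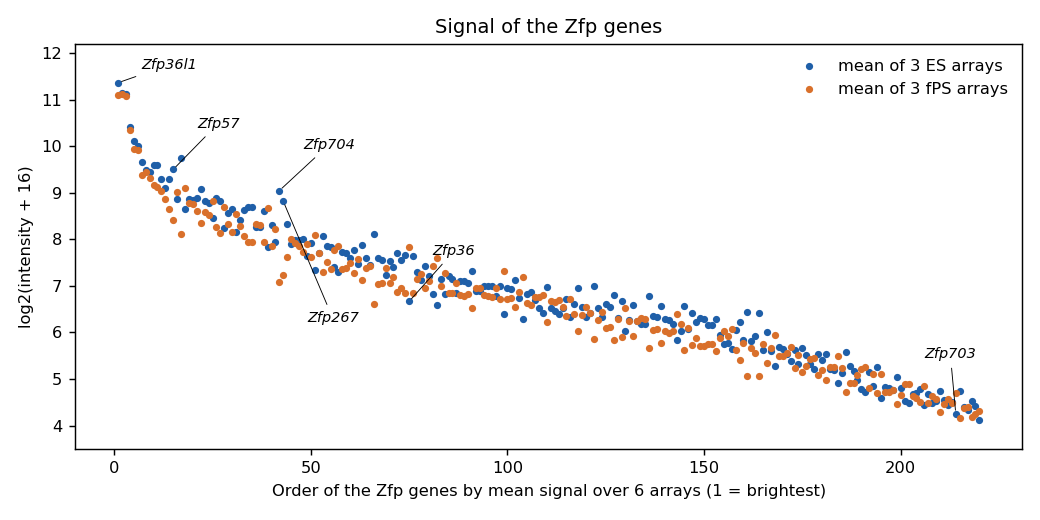
Mean log2(intensity + 16) of each of the 220 Zfp genes over 3 ES (blue) and 3 fPS (orange) arrays, in order of the mean over all 6 arrays. The signal drops steeply from Zfp36l1 over the first few genes and then slowly, and Zfp704 and Zfp267 show the widest gaps between groups among those labelled.

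The 8 brightest members were Zfp36l1, Zfp330, Zfp217, Zfp655, Zfp706, Zfp207, Zfp326 and Zfp260, and their differences lay between -0.28 and -0.04 with adjusted p-values of 0.589 to 0.968, while after quantile normalization 3 of the 8 were negative. Zfp330 read 2055, 2291 and 2467 on the ES and 2374, 2233 and 2018 on the fPS arrays. Zfp217, a partner of corepressor complexes, read 1644, 2031 and 3255 against 2475, 2001 and 1992. Zfp655 averaged 1367 ± 244 and 1325 ± 401 (SD, n = 3). The groups overlapped in these 3 genes, and the first 3 places in the order, held by Zfp36l1, Zfp330 and Zfp217, had overlapping ranges too. Zfp326, which takes part in splicing, averaged 803 ± 117 in ES and 657 ± 34.3 in fPS cells.

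Among members with roles in pluripotency and the early embryo, 6 of 8 listed were measured and none passed the threshold. Zfp281, which helps cells leave the naive state, read 525, 553 and 1086 on the ES and 651, 658 and 566 on the fPS arrays, with a difference of -0.13 and an adjusted p of 0.901. Zfp706, which restrains self-renewal in mouse ES cells, read 1180, 1096 and 990 against 1277, 1082 and 642, with a difference of -0.17. Both overlapped between the groups. Of the 6, 2 members, 33.3%, were lower without overlap, against 11.3% of all genes. Zfp462, a regulator of heterochromatin at lineage genes, read 374, 413 and 540 against 312, 266 and 227 (difference -0.68, adjusted p 0.201), and its other probe set had a difference of -0.83. Zfp296, found in pluripotent and germ cells, read 425, 420 and 536 against 363, 414 and 352 (difference -0.28, adjusted p 0.587). Zfp143, an activator that binds promoters, was the one of the 6 with a positive difference, 0.85 ± 0.29 (SE) with an adjusted p of 0.212. It read 181, 168 and 311 on the ES and 474, 436 and 294 on the fPS arrays, with overlap at the third replicates, and its other probe set had a difference of 0.20. The motif ACTACAA lay in 15 Zfp promoters, 8.2%, and the median difference of those genes was -0.42, against -0.15 for Zfp genes whose window lacked it.

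The guardians of imprints, Zfp57 and Zfp445, keep DNA methylation at imprinted regions by recruiting Trim28. Zfp57 read 508, 584 and 1202 on the ES and 433, 308 and 254 on the fPS arrays. Its groups did not overlap, and the ES values were spread by more than their distance from the highest fPS value. The mean was 765 ± 381 in ES and 331 ± 92 in fPS cells (SD, n = 3), a difference of -1.10 ± 0.35 (SE) with an adjusted p of 0.181. Zfp445 read 342, 333 and 668 against 388, 320 and 351, with overlap and a difference of -0.26.

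Of the members known from neural and mesodermal development, 6 of 7 were measured. Zfp423, a cofactor of EBF and BMP signalling, read 169, 194 and 313 on the ES and 139, 105 and 130 on the fPS arrays, with no overlap, a difference of -0.74 and an adjusted p of 0.221. Its 3 other probe sets had differences of -0.59, -0.06 and 0.18, so they disagreed in sign. Its relative Zfp521 read 6.36 to 21.5 on the ES and 2.29 to 18.2 on the fPS arrays, and Zfp703 1.34 to 5.26 and 5.22 to 22.2. At such signals, near the bottom of the Zfp order, these probe sets may not measure a transcript. Zfp536 was as dim but for 47.5 on fPS replicate 1. Zfp503 read 226, 410 and 620 against 264, 367 and 206, with a difference of -0.49 and wide overlap. A nearly as bright probe set of Zfp503 read 376, 457 and 521 against 231, 236 and 190, with no overlap, a difference of -0.99 and an adjusted p of 0.0778, and its dimmer ones had differences of -0.71 and 0.56.

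Members acting on RNA, ribosomes, the spindle or ubiquitin were represented by 9 of 10 genes, with a median difference of -0.09, or 0.04 after quantile normalization. The one without overlap was Zfp451, a SUMO ligase, at 345, 299 and 508 on the ES and 244, 233 and 213 on the fPS arrays (difference -0.67, adjusted p 0.231). Its second, dimmer probe set overlapped, with a difference of -0.12 and an adjusted p of 0.877. Of the 9 genes, 11.1% were thus lower without overlap, against 11.3% of all genes. Zfp638, which joins the HUSH complex in silencing foreign DNA, read 409, 281 and 503 against 686, 676 and 322 (difference 0.44, adjusted p 0.602). The other probe sets of Zfp638 had differences of -0.22 and -0.68, and the mean over its probe sets gave -0.15. Zfp598, a sensor of collided ribosomes, read 133, 175 and 269 against 205, 240 and 227, within a shared range. Zfp622, a ribosome assembly factor, read 840, 569 and 912 against 799, 462 and 431, also overlapping. Zfp207, which acts at the spindle and in splicing, read 938, 932 and 1205 against 1249, 980 and 706.

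The DNA-binding activators and repressors, 8 of 9 measured, all had negative differences, with a median of -0.21. Of the 8, 3 genes, 37.5%, were lower without overlap, against 11.3% of all genes. After quantile normalization 7 had negative differences, and without ES replicate 3 and fPS replicate 3, 4 did. Zfp410, an activator of the chromatin remodeller gene Chd4, read 349, 341 and 544 on the ES and 250, 240 and 205 on the fPS arrays (difference -0.76, adjusted p 0.182). The dimmer probe set of Zfp410 overlapped, with a difference of -0.21 and an adjusted p of 0.785. Chd4 itself averaged 582 ± 241 and 531 ± 120 (difference -0.08, adjusted p 0.946), with overlap. Zfp386, a KRAB member, read 283, 295 and 344 against 215, 203 and 133 (difference -0.72, adjusted p 0.194). Zfp263 read 108, 124 and 224 against 68.2, 99.3 and 65.3 (difference -0.80, adjusted p 0.24). The other 5, Zfp148, Zfp384, Zfp260, Zfp354a and Zfp110, overlapped between the groups, with differences between -0.23 and -0.05. Of 39 members listed for a known role in all, 34 were measured, and the others were not analysed here.

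The corepressor and heterochromatin genes that work with KRAB members showed no call: of 32 listed, 25 were measured and 0 passed the threshold in limma. Of the 25, 4 had an unadjusted p under 0.05, all lower. Over all genes 8.88% were lower and 8.59% higher at that level, 17.5% in either direction. The median difference was -0.18, and 7 genes, 28%, were lower without overlap against 11.3% of all genes. Without ES replicate 3 and fPS replicate 3 the median was 0.07. Trim28, the central corepressor, read 4152, 3281 and 5550 on the ES and 4385, 4031 and 2872 on the fPS arrays, with overlap, a difference of -0.19 and an adjusted p of 0.808. Sumo2, which modifies Trim28, averaged 6602 ± 475 and 5449 ± 430 (SD, n = 3; difference -0.28, adjusted p 0.565), and the deacetylase Hdac2 4409 ± 934 and 2899 ± 283 (difference -0.59, adjusted p 0.258). Setdb1 averaged 580 ± 254 and 509 ± 40.6, a difference of -0.10. Tasor, a HUSH subunit singled out after its values were seen, had the largest difference of the list. It read 277, 252 and 385 on the ES and 144, 68.7 and 61.8 on the fPS arrays, a difference of -1.63 ± 0.31 (SE) with an adjusted p of 0.0562. The other HUSH subunits Mphosph8 and Pphln1 had differences of 0.12 and -0.44.

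Families with other names gave similar figures in part, and 0 of their genes passed the threshold in limma. The 35 Zbtb genes had a median difference of -0.20, with 24 negative and 8, 22.9%, lower without overlap against 11.3% of all genes, and the 11 Zscan and Zkscan genes -0.27 with 8 negative. The 9 Znf genes, named like human zinc finger genes, had a median of -0.05. The 15 Zc3h genes, which carry CCCH fingers, had a median of 0.13 with 4 negative. Without ES replicate 3 and fPS replicate 3 these medians were -0.05, -0.15, 0.19 and 0.21 in the order given here. Of these families, 7, 2, 2 and 1 genes in this order were lower at an unadjusted p under 0.05, and 0, 1, 1 and 1 higher, against 8.88% and 8.59% of all genes.

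The position of Zfp genes was read from the RefSeq order of protein-coding genes on GRCr8, in which 219 were found. Those with 0 zinc finger genes among their 10 nearest neighbours, 5 on each side, numbered 98 and had a median difference of -0.13, with 16.3% lower without overlap against 11.3% of all genes. The 53 with 1 to 2 such neighbours had -0.20 and 20.8%, and the 68 with 3 or more had -0.21 and 22.1%. Median log2 signals of the 3 classes were 7.22, 6.54 and 6.22, so members in clusters were dimmer. There were 31 pairs of Zfp genes with no protein-coding gene between them, formed by 52 genes. In 15 pairs both differences were negative, in 3 both were positive, and in 13 they had opposite signs, in a family where 66.4% of all members had a negative difference. On chromosome 1, which held 62 members with a median difference of -0.15, the consecutive genes Zfp764l1, Zfp764, Zfp688 and Zfp689 had differences of -1.35, -0.46, 0.75 and -0.18.

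Chromosome 8, chosen after the values were seen, held 11 members, with 10 negative differences, a median of -0.57, and 7 genes lower without overlap. All 791 measured genes of that chromosome had a median difference of 0.005, and 10.9% were lower without overlap. Without ES replicate 3 and fPS replicate 3 the members had a median of -0.46, with 9 negative. A run of 4 consecutive protein-coding genes, Zfp26, Zfp426, Zfp266 and Zfp846, belonged to those 7. Zfp26 read 64.7, 74 and 100 on the ES and 50.6, 41.3 and 27.5 on the fPS arrays. Zfp426 read 49.2, 71.8 and 69 against 42.4, 35.2 and 31.4, and Zfp846 read 62.6, 56.5 and 49.3 against 45.4, 33 and 35.4. Zfp266 was the brightest of the run, at 144, 157 and 283 against 90, 75.3 and 139. In Zfp26 and Zfp426 the lowest of the fPS arrays was replicate 3, while in Zfp266 replicate 3 was the highest of its group. The differences were -0.78 for Zfp26, -0.59 for Zfp426, -0.82 for Zfp266 and -0.42 for Zfp846, and their adjusted p-values lay between 0.179 and 0.376, so none passed the threshold. Over 16 other settings these genes had adjusted p-values from 0.0967 to 0.68. Related neighbours can share probe signal through similar sequence, and this was not tested. The other 3 were Zfp317, Zfp653 and Zfp105. The one member with a positive difference on the chromosome was Zfp609, at 142, 130 and 194 against 291, 220 and 125, with overlap.

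**Figure D5:**
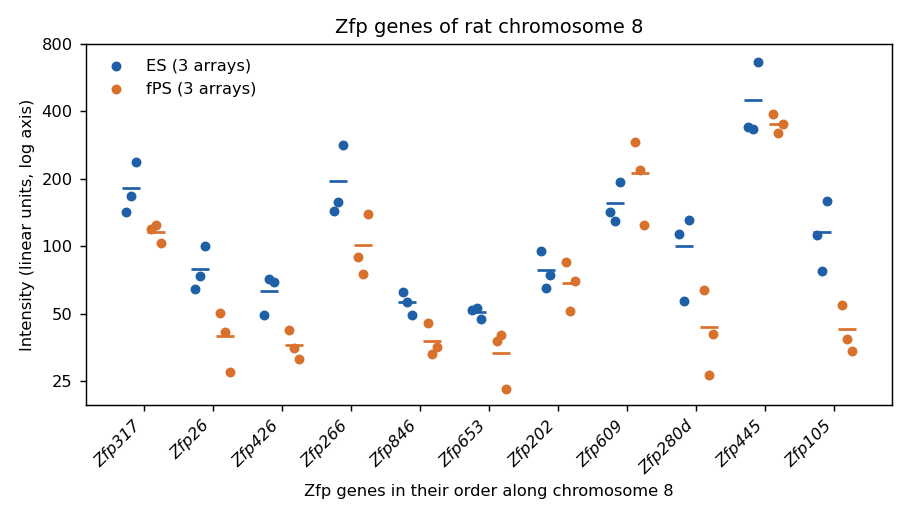
Intensity (log axis) on each of 3 ES (blue) and 3 fPS (orange) arrays for the 11 Zfp genes of rat chromosome 8, in their order along it; points are arrays and lines group means. The neighbours Zfp26, Zfp426, Zfp266 and Zfp846 each have all fPS values below all ES values, as do Zfp317, Zfp653 and Zfp105.

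All 4 promoters of this run, printed above, held GGAAGTGA once. That motif lay in 16 of the 183 Zfp promoters found in RefSeq, 8.74%, in 4.46% of those of other genes on the array and in 3.26% of all 27457 gene promoters. Since it was picked from these sequences, its presence in them is a description only. The Zfp genes with it had a median difference of -0.19 and those without it -0.18. CCGGAAG lay in 36 Zfp promoters, 19.7%, against 15% of other genes and 9.22% of all promoters. The median difference of those 36 was -0.39, against -0.13 for Zfp genes without it. Of the 36, 30 were negative, in a family where 66.4% of all members were. Medians by motif were not taken without ES replicate 3 and fPS replicate 3. GCGNGGGCG lay in 15 Zfp promoters, 8.2%, against 9.49% of other genes and 5.29% of all promoters, with medians of -0.23 with it and -0.17 without. Zfp36, Zfp426 and Zfp266 were among those 15 and differed in sign, 1.16 for the first and -0.59 and -0.82 for the others. CCAATCAG lay in 15 Zfp promoters, 8.2%, against 4.71% and 3.55%, with 2 or more copies in 3 of them, Zfp267 included. ACTACAA lay in 8.2% against 3.73% and 3.4%, and TGANTCA in 12 Zfp promoters, 6.56%, against 5.42% and 7.33%. Over their windows Zfp promoters had a median of 56.3% G and C and 17 CpG dinucleotides, against 60% and 19 in other genes on the array. These shares were not tested, and a match is not a site shown to be bound.

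Where a Zfp gene had several probe sets, they often disagreed. Of 75 such genes, 37 had probe sets of both signs, 31 had negative and 7 positive differences throughout. In all, 341 probe sets stood for the 220 genes, and 2 of them passed the threshold, 1 each for Zfp704 and Zfp267. The probe set used was of a type that can bind several transcripts in 7 genes, and 12 symbols end in l1, l2 or -ps1. Apart from Zfp36l1 and Zfp36l2, which are relatives of Zfp36, these names mark likeness to another gene, and how close the sequences are was not tested. The values of such genes, Zfp933l1 and Zfp764l1 among them, are uncertain, since shared sequence could let a probe set read several genes.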

How the data were processed

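Biotin-labelled RNA of the 6 samples was measured on 1 Affymetrix 3′ array each. The deposited values were linear intensities, 1 per probe set and array; how the authors summarised probes, corrected background and scaled arrays is not given in the sources used here, and there were 0 other columns. With 3 arrays per group, precision is limited by their number. Of 31099 probe sets, 57 controls were left out. Symbols came from the platform's annotation: 20826 probe sets had 1 symbol, 436 several (left unnamed) and 9780 none. RefSeq tables of GRCr8 gave gene order and promoters (first start listed per gene; 183 of 220 Zfp genes matched).

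Values were fitted as log2(intensity + 16) with limma 3.58.1 in R 4.3.3 (lmFit, eBayes), adjusted over 31042 probe sets. Genes were named if past the threshold, among the 8 largest differences per direction without overlap, among the 8 brightest, or in the role list, with up to 3 per partner list; others were named after their values were seen. Members and lists were chosen with earlier results of these data known. Data were also simulated for 3 arrays per group (20 runs, 31042 probe sets, 200 changed). The fit recovered 5.5% of 2-fold, 80.3% of 4-fold, 95.5% of 8-fold and 99.4% of 16-fold changes, with 5.49% false calls. Whether these rates hold for dim probe sets, or where whole arrays shift, was not tested.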

Additional observations from a re-analysis of the deposited data

How the results depend on the processing

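Calls depended on the settings more than differences did. Over 859 fits of single named genes under other settings, 793 kept their direction and side of the threshold, 12 passed it newly, 11 lost it and 43, none with a call on either side, changed sign. The 1 Zfp gene past the threshold became 2 after quantile normalization, 2 after centring and 2 with the mean over a gene's probe sets. It became 3 with the trend and robust settings and 6 without the dimmest 30% of probe sets. There were 0 with a pseudocount of 1 or 64, 0 with the replicate number as a block, 0 to 1 when leaving out single arrays, and 0 without ES replicate 3 and fPS replicate 3, a setting chosen after seeing the data. Over all genes the 122 became 203, 0 (pseudocount 1), 26 (pseudocount 64), 416 (dimmest left out), 358 (trend) and 64 (replicate block), 0 to 93 without single arrays and 0 without both of those arrays. Same-numbered arrays had correlations of deviations of 0.151, 0.02 and 0.0748. With 3 arrays per group, such low values cannot tell whether the numbers pair the samples. The KRAB partners past the threshold became 1 after quantile normalization, centring, leaving out dim probe sets, the trend setting or averaging probe sets, and 0 to 1 without single arrays. The mRNA decay partner call was at 0 with either other pseudocount, with the block, without any single array and without both of those arrays. The median difference of Zfp genes lay between -0.28 and -0.025 without single arrays and was 0.031 without both of those arrays. Zfp genes without overlap numbered 16 to 31 higher and 45 to 75 lower without single arrays, against 14.4% to 20% and 13.3% to 21.4% of other genes (Zfp genes 7.27% to 14.1% and 20.5% to 34.1%), and 57 higher and 55 lower without both arrays. The median signal of Zfp minus other genes, -0.05, was -0.50 once dim probe sets were left out. Signal over background was not at hand, so dim probe sets may not measure a transcript.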
